A study of Mus musculus with 36 samples.

Results

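The comparison sets mouse embryonic fibroblasts held at 700 mOsm for 15 min, with no recovery, against unstressed cells in normal medium. Its members are the libraries whose titles name these conditions, 2 ribosome footprint (Ribo-seq) and 2 RNA-seq libraries of each, which makes 8 of the 36 libraries of the series. The cells, of strain C57BL/6J, were cultured fibroblasts grown from mouse embryos, and their osmolarity was raised by adding sorbitol to the medium. No genotype or transgene is named for either group, and both were lysed in a buffer with cycloheximide, which halts ribosomes on the mRNA. Footprints were taken from the gradient fractions that begin at the single-ribosome peak and run to the bottom, after RNase I digestion, and RNA came from cytoplasmic extracts. The labels do not say whether the 2 libraries of a condition came from separate cultures, so an RNA p-value reflects how far these libraries vary, and that variation may be technical. The deposited lists hold Ensembl transcript identifiers with no gene names, so results are given by transcript length and RNA response, the identity of the cells was not checked against marker genes, and 4 identifiers are printed.

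Water leaves mammalian cells when the outside osmolarity rises, and the cells shrink and lower overall protein synthesis. A ribosome footprint is the stretch of mRNA that a ribosome covers, so the footprints of a coding sequence depend on how often ribosomes start on it, how fast they move along it, and how much of its mRNA there is. A longer coding sequence has room for more ribosomes, and RPKM divides its footprints by its length. The non-coding length of an mRNA is its untranslated part at both ends, where many elements that act on mRNA stability, localisation and translation lie.

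Footprint lists gave RPKM over the coding length and RNA lists FPKM over the transcript length, both reads scaled by length and library total. The stressed footprint libraries held 823957 and 1070017 reads on 6193 and 6716 listed transcripts, against 7261234 and 7593983 reads on 10421 and 10458 transcripts in unstressed cells. The RNA libraries held 27907955 and 33804995 reads in stressed cells and 55262396 and 39748466 reads in unstressed cells. Read numbers of the paired footprint libraries agreed almost within sampling noise, with a chi-square statistic per degree of freedom of 1.042 in stressed and 1.047 in unstressed cells, where noise alone gives 1, so each pair was averaged into 1 sample. Footprint and efficiency differences therefore carry neither an error nor a test, and a transcript is called higher or lower at 2-fold. The RNA pairs gave 4.178 in stressed and 47.083 in unstressed cells and were kept as n = 2. Values were scaled to the typical abundant transcript, so a change shared by all transcripts cannot be seen, and fewer contributing cells and less RNA per cell cannot be told apart.

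The footprint response was large and went both ways, with long and very short coding sequences on the higher side and those of middle length on the lower side. The filter on low values, a mean scaled value of 2 or more, left 8849 transcripts, of which 1487 (16.8%) had footprints higher by 2-fold or more in stressed than in unstressed cells, and 4323 (48.9%) had footprints lower by as much. The values as deposited gave 744 higher and 5095 lower, because the scaling moved the stressed libraries by 0.56 relative to the unstressed ones on the log2 scale. Depth also bears on this split, since an unlisted transcript was set to 0 and lists began at about 5 reads. Among 1155 well-read transcripts, those with at least 100 reads expected in the shallower stressed library, 451 (39%) were higher and 247 (21.4%) lower. The expected reads came from the mean scaled value over all 18 libraries, so the stressed values being compared helped to choose this set. Over 1600 codons it held 72 transcripts, against 53 when chosen by unstressed level. With the well-read set drawn from unstressed levels alone, 314 were higher and 353 lower, so the balance between directions depended on the set. The log2 change of the well-read transcripts ran from -5.45 to 3.69 with an SD of 1.64, while their 2 stressed libraries differed from each other with an SD of 0.163 and none by 2-fold. Over all 8849 transcripts the 2 stressed libraries differed with an SD of 1.12, and 337 transcripts were 2-fold or more higher and 788 lower in replicate 1 than in replicate 2. The 2 unstressed libraries differed with an SD of 0.175, with 5 and 12 such transcripts.

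Set out by coding length, the footprint change first went down and then up. In the shortest class, of up to 100 codons, the median log2 change was 0.65, with 73 of 180 transcripts 2-fold or more above and 55 as far below their unstressed value. The median was 0.38 for 101 to 150 codons, -0.70 for 151 to 200 and -1.31 for 201 to 300 codons. It was lowest at 501 to 600 codons, where it was -1.92 and 563 of 877 transcripts were at least 2-fold lower against 63 higher. From there it climbed through -0.76 at 801 to 1000 codons and -0.05 at 1001 to 1200 codons to 0.57 at 1201 to 1400 codons. On the values as deposited the last 2 of these classes stood at -0.56 and 0.04. The first 2 classes then stood at 0.07 up to 100 codons and -0.14 at 101 to 150 codons, so the higher side of the short classes depended on the scaling.

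**Figure D1:**
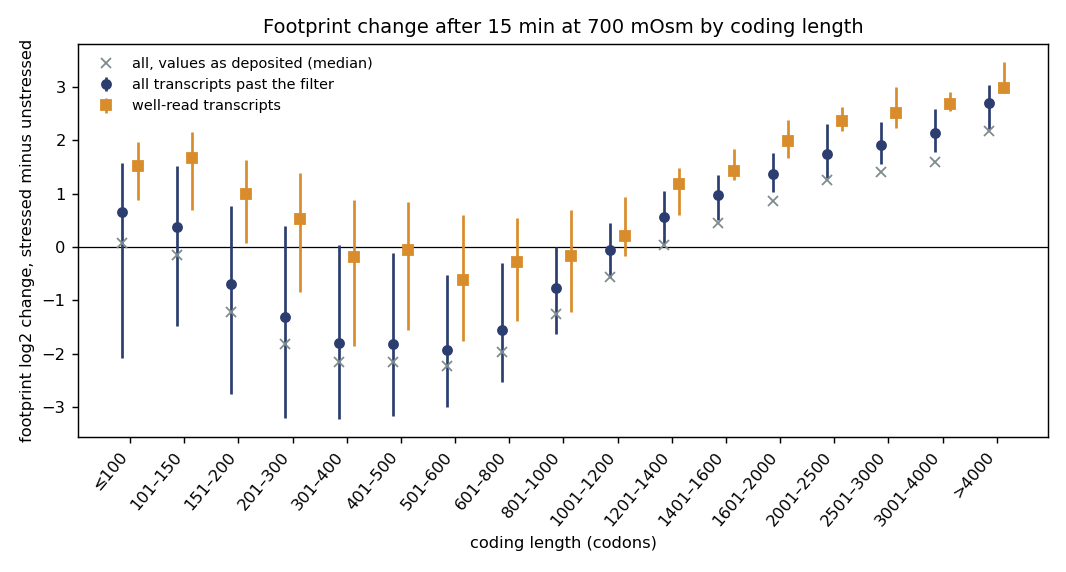
Median footprint log2 change (700 mOsm 15 min minus unstressed) in 17 classes of coding length in codons; bars span the quartiles over transcripts, circles are all transcripts past the filter, squares well-read ones and crosses medians on the values as deposited. The circles go down to -1.92 at 501 to 600 codons and up to 2.69 over 4000 codons.

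Beyond 1400 codons nearly the whole class was on the higher side. The median was 0.98 at 1401 to 1600 codons, 1.36 at 1601 to 2000, 1.75 at 2001 to 2500, 1.91 at 2501 to 3000 and 2.13 at 3001 to 4000 codons. All 21 transcripts over 4000 codons were at least 2-fold higher, with a median of 2.69. Only 2 of the 373 transcripts over 1600 codons were at least 2-fold lower, at -2.84 with 1852 codons and -2.39 with 2015 codons, and neither was well-read. The medians of well-read transcripts, 1.52 up to 100 codons and 2.98 for the 9 over 4000 codons, were also lowest at 501 to 600 codons, at -0.61. They differed in sign from those of all transcripts at 151 to 200 codons, with 1.00, or 0.44 for the set by unstressed level, and at 201 to 300 codons, with 0.53, or 0.09. Spearman's rho between footprint change and coding length was 0.13 over the 8446 transcripts measured in both assays and -0.10 over the 1155 well-read ones. Among the 237 well-read transcripts over 800 codons, it was 0.81, as a description across transcripts of the same libraries. The stressed values also helped to choose that set.

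The shift can also be read from where the footprint reads lay, which needs no scaling between libraries. Coding sequences over 1600 codons took 13.0% of the footprint reads in both stressed libraries, against 4.01% in both unstressed libraries. Those of 401 to 800 codons took 19.9% and 20.1% in stressed cells and 33.7% in both unstressed libraries. Those of 101 to 200 codons took 26.2% in both stressed libraries and 17.4% in both unstressed ones, and those up to 100 codons 5.44% and 5.39% in stressed cells against 3.01% in both unstressed libraries. Every one of these 4 gaps was wider than the 95% Wilson intervals of the shares, which cover counting error only. The intervals also take the reads as independent, although some may be copies of one another. Of the RNA reads on transcripts with a coding length, the class over 1600 codons took 5.09% and 5.14% in stressed cells and 5.84% and 5.98% in unstressed cells. The RNA share of the longest class was therefore lower while its footprint share was higher.

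**Figure D2:**
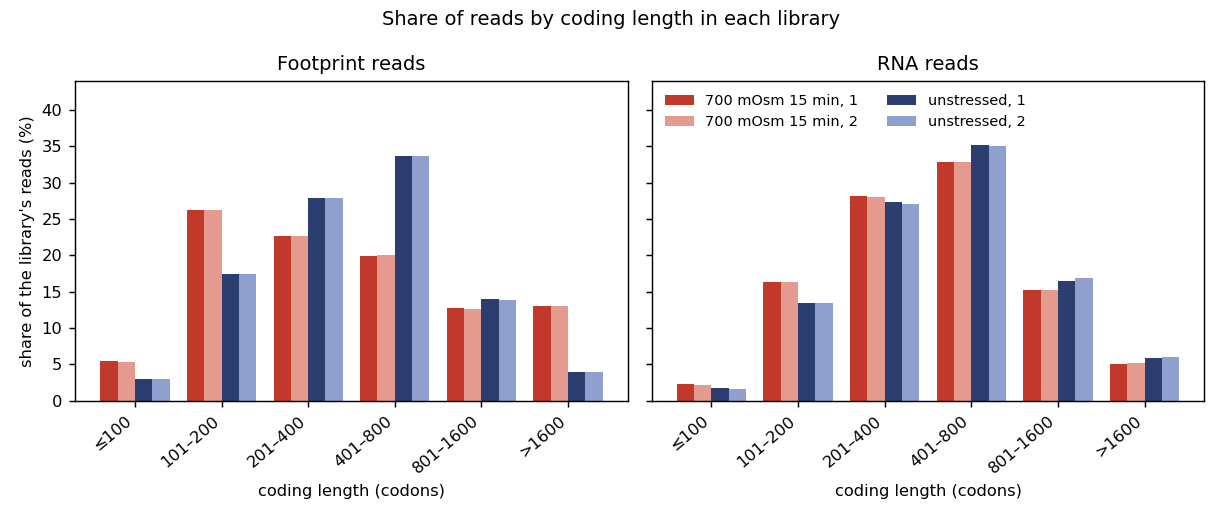
Share of each library's reads (%) by class of coding length in codons, footprints on the left and RNA on the right, with the 2 stressed libraries (red) left of the 2 unstressed ones (blue). In stressed cells the footprint share is smaller at 401 to 800 codons and larger over 1600 codons, at 13.0% against 4.01%.

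Footprint reads thus spread towards both ends of the length range. The read-weighted median coding length was 346 codons in both stressed libraries and 415 codons in both unstressed libraries. The upper read-weighted quartile lay at 839 and 838 codons in stressed cells and at 674 codons in both unstressed libraries, and the lower quartile at 161 codons in stressed and 228 codons in unstressed cells. Sequences over 1000 codons held 22.2% of the reads in stressed cells and 11.4% in unstressed cells. Those of 300 to 1000 codons held 31.0% and 31.1% in stressed cells and 53.1% in both unstressed libraries.

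The transcripts with the most footprint reads changed as well. The most read transcript was the same one in both conditions, of 463 codons, and took 2.67% and 2.69% of the reads in stressed cells against 1.66% and 1.65% in unstressed cells. The next 4 in stressed cells, of 141 to 407 codons, each took 0.829% to 0.910% there and 0.199% to 0.307% in unstressed cells, and the RNA of all 4 rose. The next 4 in unstressed cells, of 376 to 725 codons, took 0.126% to 0.273% in stressed cells and 0.632% to 0.800% in unstressed cells. Of those 4, 2 had RNA that rose and 2 did not pass the RNA test. For comparison, RNA rose in 693 of the 1155 well-read transcripts.

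Which transcripts went unlisted under stress also followed coding length. Of 10614 transcripts listed in at least 1 of the 4 footprint libraries, 5888 were listed in all 4, 3260 in both unstressed and neither stressed library, and 2 in a stressed library and neither unstressed one. At their deposited unstressed RPKM, 5440 transcripts would have had at least 20 reads in the shallower stressed library, and 420 of these (7.72%) were in neither stressed list. The share was 11.7% at 201 to 400 codons and 10.8% at 401 to 800 codons. It was 2.83% up to 100 codons, 1.03% at 801 to 1600 codons, and 0 of 299 over 1600 codons, which allows a share of up to 1.00%.

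RNA changed by much smaller factors, and over all transcripts tested more fell than rose. Of 9275 transcripts tested, 1791 (19.3%) rose and 2826 (30.5%) fell in stressed cells (limma, Benjamini-Hochberg adjusted p under 0.05). Their median log2 changes were 0.44 for those that rose and -0.56 for those that fell. The change reached 2-fold in 53 transcripts on the higher side, 51 of them past the test, and in 179 on the lower side, all past it. The counts leaned on the unstressed pair, with 1255 risen and 2036 fallen without unstressed replicate 1 and 1195 and 1991 without unstressed replicate 2.

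RNA that rose outnumbered RNA that fell among transcripts with short coding or short non-coding sequence, and over all transcripts past both filters the reverse held for long ones. Among the 8446 transcripts measured in both assays, 1694 (20.1%) had RNA that rose and 2533 (30%) RNA that fell. Of the 173 with up to 100 codons 114 rose and 9 fell, and of the 1037 with 101 to 200 codons 499 rose and 113 fell. Of the 348 over 1600 codons 50 rose and 159 fell, with a median log2 change of -0.24. Of the 72 well-read members of that class 30 rose and 21 fell, with a median of 0.12. In the set by unstressed level these were 22 and 17 of 53, with a median of 0.13. Over all 1155 well-read transcripts 693 rose and 108 fell. The well-read median was 0.71 up to 100 codons, so it too was lower in the longest class. In each of the 6 coding-length classes more well-read transcripts rose than fell, in both sets. By non-coding length, the shortest class, of up to 250 nt, had 328 of 687 that rose, 65 that fell and a median log2 change of 0.29. Of the 511 with over 4000 nt, 29 rose and 365 fell, with a median of -0.58.

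**Figure D3:**
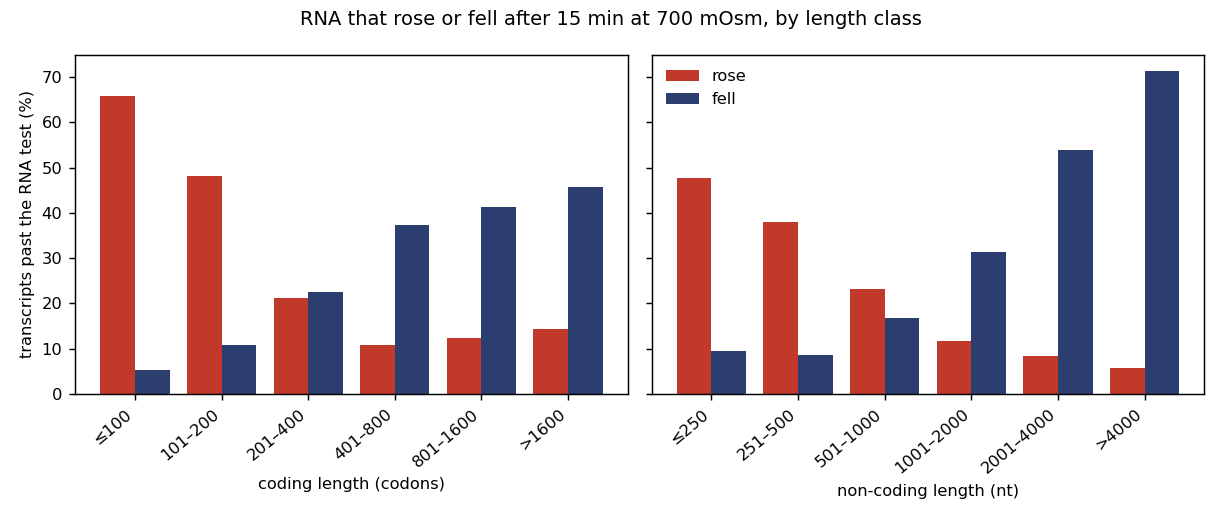
Share of transcripts (%) whose RNA rose or fell at 700 mOsm for 15 min relative to unstressed cells (limma, adjusted p under 0.05), by coding length on the left and non-coding length on the right. The share that rose goes from 47.7% up to 250 nt of non-coding sequence to 5.68% over 4000 nt, and the share that fell from 9.46% to 71.4%.

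The 2 unstressed RNA libraries themselves differed slightly along non-coding length. The median of replicate 1 minus replicate 2 was -0.02 up to 250 nt and 0.09 over 4000 nt, while the 2 stressed libraries differed by 0.01 and 0.00. Over the 4 pairings of a stressed with an unstressed library, the median change was 0.24 to 0.32 up to 250 nt and -0.60 to -0.52 over 4000 nt. Every pairing thus gave a wider spread between these classes than the unstressed libraries gave between themselves. Among the 35 well-read transcripts over 4000 nt the median RNA change was 0.03, against 0.50 for the 187 up to 250 nt. In the set by unstressed level the medians were -0.13 (n = 40) and 0.47 (n = 158).

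Over all transcripts, footprints were also lower where the non-coding sequence was longer. The median footprint change was 0.11 up to 250 nt, -0.78 at 501 to 1000 nt and -1.92 over 4000 nt, and for well-read transcripts 1.41, 0.40 and -1.10. The first value was -0.38 as deposited. To hold coding length roughly fixed, the 2 lengths were crossed. At 201 to 400 codons the median footprint change was -0.34 where the non-coding sequence had up to 500 nt and -2.69 where it had over 2000 nt. At 401 to 800 codons it was -0.89 and -2.32 in the same 2 groups. The well-read medians were 0.48 and -1.16 at 201 to 400 codons and 0.31 and -0.48 at 401 to 800 codons.

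Over 800 codons the gap between non-coding classes was smaller. At 801 to 1600 codons the median footprint change was 0.13 with up to 500 nt and -0.22 with over 2000 nt, and over 1600 codons it was 2.01 and 1.44. Translational efficiency, here the footprint log2 change less that of RNA, had medians of 0.10 and 0.25 at 801 to 1600 codons, and 1.96 and 1.82 over 1600 codons. Up to 200 codons the efficiency medians were lower with more non-coding sequence, at 0.22 with up to 500 nt and -0.78 with over 2000 nt for 101 to 200 codons. The well-read transcripts of these 2 groups, 129 and 28 in number, stood at 0.96 and 0.95.

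**Figure D4:**
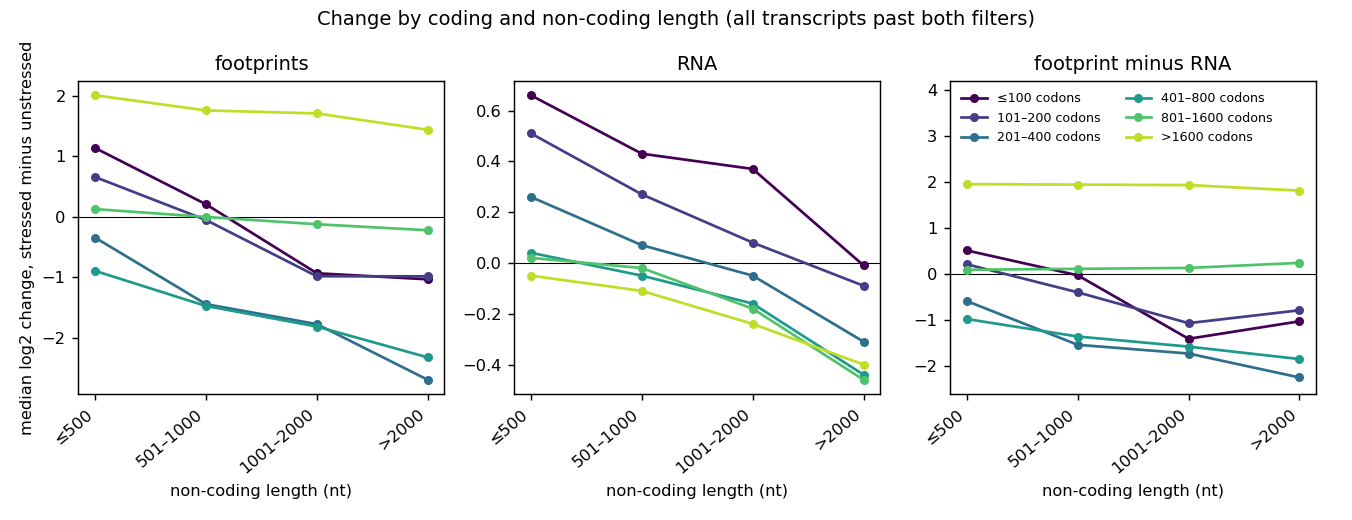
Median log2 change (700 mOsm 15 min minus unstressed) of footprints, RNA and footprints minus RNA against non-coding length in nt, with one line per class of coding length, for the 8446 transcripts past both filters. The line over 1600 codons stays between 1.82 and 1.96 in the right panel, while that of 201 to 400 codons goes to -2.24.

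Of the 8446 transcripts, 1236 (14.6%) gained 2-fold or more in efficiency in stressed cells and 3992 (47.3%) lost as much. Over 1600 codons 334 of 348 were higher and 2 lower, with a median of 1.91. At 401 to 800 codons 179 of 3025 were higher and 1830 lower, with a median of -1.50. Up to 100 codons 45 of 173 were higher and 55 lower, with a median of 0.23 that was -0.28 as deposited. The values as deposited gave 609 higher and 4679 lower over all lengths. Of the 1155 well-read transcripts 333 were higher and 262 lower, and the set by unstressed level had 229 and 363. The well-read median at 401 to 800 codons was -0.51, or -0.85 by unstressed level.

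Higher footprints outnumbered lower ones where RNA rose, and lower ones outnumbered higher ones where RNA fell. Of the 1694 transcripts whose RNA rose, 697 had at least 2-fold higher footprints and 324 at least 2-fold lower ones, with a median footprint change of 0.70. Over all 8446, 1420 (16.8%) were higher and 4102 (48.6%) lower. Of the 2533 whose RNA fell, 162 were higher and 1729 lower, with a median of -2.23. The 4219 that did not pass the RNA test had 561 higher and 2049 lower and a median of -0.90. These groups also differed in length, with median coding lengths of 274 codons where RNA rose, 433 where it did not pass and 558 where it fell. Among well-read transcripts, 368 of 693 whose RNA rose had higher footprints and 66 lower ones, against 451 (39%) and 247 (21.4%) of all 1155. Where RNA fell, 24 of 108 (22.2%) were higher and 57 lower, with a median of -1.20. Where it did not pass, 59 of 354 (16.7%) were higher and 124 lower, with a median of -0.45.

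Across the well-read transcripts up to 300 codons, Spearman's rho between footprint and RNA change was 0.56 (n = 450), and it was 0.60 at 300 to 800 codons (n = 468) and 0.19 over 800 codons (n = 237). Each value describes transcripts of the same 8 libraries, so the points are not replicates, and the stressed values helped to choose the set. In well-read transcripts the change had an SD of 1.64 for footprints, 0.350 for RNA and 1.51 for efficiency.

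**Figure D5:**
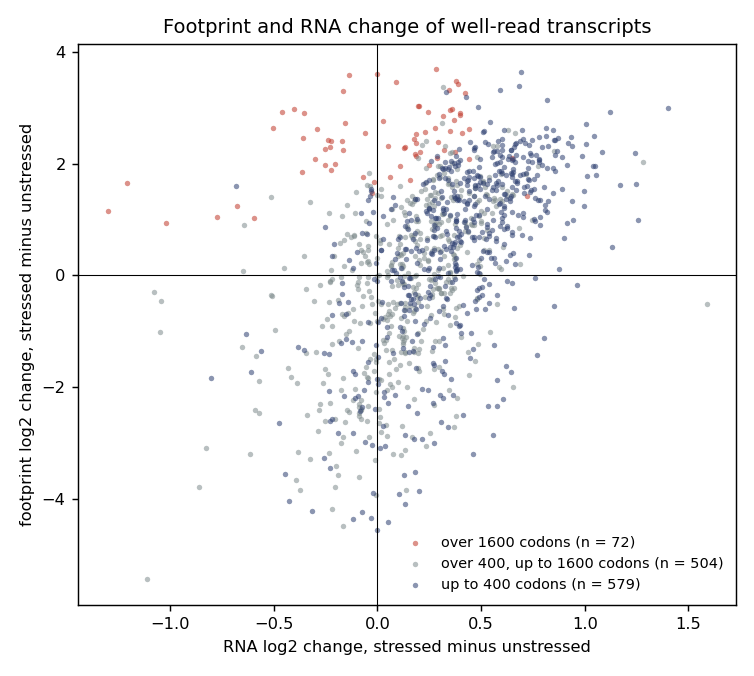
Footprint log2 change against RNA log2 change (both 700 mOsm 15 min minus unstressed) for the 1155 well-read transcripts, coloured by coding length, with one point per transcript. The 72 transcripts over 1600 codons lie above 0 on the footprint axis and on both sides of 0 on the RNA axis.

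The transcripts were also ranked by unstressed RNA level and split into 5 groups of 1689 or 1690. In the group with the highest level 801 rose and 322 fell, and in the lowest 130 rose and 384 fell. The median footprint change was -0.41 and -1.25 in the same 2 groups. Well-read transcripts had medians of 0.34 in the highest group (n = 930) and 1.48 in the lowest, which held only 4 of them. The stressed values helped to choose the well-read set, so no direction is read from these 2 medians. The unstressed libraries enter both the level and the change, so these values are a description.

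The highest footprint change among well-read transcripts was that of ENSMUST00000055226, with a coding length of 2478 codons in a transcript of 8315 nt. Its scaled RPKM was 848 and 876 in stressed cells against 65.3 and 66.2 in unstressed cells, from 8962 reads in stressed and 7813 in unstressed cells, a log2 change of 3.69 (3.13 as deposited). The libraries of the remaining 7 conditions gave 29.3 to 177. Its RNA was at 102 and 107 scaled FPKM in stressed cells and 80.1 and 91.4 in unstressed cells, a log2 change of 0.28 (SE 0.077, limma adjusted p = 0.00661) that did not pass without unstressed replicate 1, at 0.19. Of the 8 highest footprint changes, 6 were in coding sequences of 2478 to 5590 codons and 2 in sequences of 116 and 137 codons, all between 3.40 and 3.69. RNA rose for 5 of the 8, with changes of 0.28 to 0.69, and did not pass the test for the other 3. Of all 1155 well-read transcripts, RNA rose in 693, a similar share.

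The lowest footprint change among well-read transcripts was that of ENSMUST00000064795, of 534 codons with 2882 nt of non-coding sequence. It was in neither stressed list, against 43.4 and 41.9 scaled RPKM from 545 and 547 reads in unstressed cells. Its change of -5.45, or -7.42 with a pseudocount of 0.25, depends on that pseudocount and is no bound. Its RNA fell, with 3.76 and 4.50 scaled FPKM in stressed cells and 9.09 and 11.2 in unstressed cells, a log2 change of -1.11 (SE 0.132, limma adjusted p = 6.42e-06). It counted as well-read through the libraries of 2 h of recovery after 2 h of stress, where it had 839 and 846 scaled RPKM. The 8 lowest changes of well-read transcripts, -5.45 to -4.22, were in coding sequences of 176 to 534 codons. RNA fell for 2 of them and did not pass the test for the other 6. Of all 1155 well-read transcripts, RNA fell in 108 and did not pass in 354.

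The largest RNA rise was that of ENSMUST00000044043, a transcript of 390 nt with no footprint value. It had 24.6 and 21.6 scaled FPKM in stressed cells, from 262 and 280 reads, against 2.54 and 6.24 in unstressed cells, from 56 and 99 reads. The means were 23.1 ± 2.14 in stressed cells and 4.39 ± 2.62 in unstressed cells (SD, n = 2 each), a log2 change of 2.25 (SE 0.317, limma adjusted p = 3.27e-05). The groups did not overlap, and the 2 unstressed values lay furthest apart. Of the 6 largest rises, 4 were in transcripts with no footprint value. The other 2 rose by 1.66 and 1.59, with footprint changes of 2.33 at 162 codons and -0.51 at 519 codons.

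The largest RNA fall was that of ENSMUST00000024811, of 314 codons and 2638 nt. It had 2.84 and 2.82 scaled FPKM in stressed cells against 11.5 and 13.3 in unstressed cells, a log2 change of -1.80 (SE 0.145, limma adjusted p = 2.01e-07). Its footprints were in neither stressed list, against 19.7 and 19.8 scaled RPKM in unstressed cells, from 145 and 152 reads. Of the 6 largest RNA falls, -1.80 to -1.44, 5 had footprint changes of -5.29 to -3.12. The remaining one, with 616 codons, had a footprint change of 0.87 beside an RNA fall of -1.44, an efficiency change of 2.31.

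The higher footprints of long coding sequences were set directly against those after 2 h at 700 mOsm. After 15 min 1433 (16.2%) of 8849 transcripts stood 2-fold or more above their value after 2 h, and 1949 (22%) stood 2-fold or more below it. Over 1600 codons 331 of 373 were higher and 3 lower, with a median log2 difference of 2.26 and library pairs between 2.23 and 2.28. The well-read median was 3.16 over 72 transcripts. At 401 to 800 codons the median difference was -0.31, outside the range of its library pairs, -0.28 to -0.10. Up to 100 codons it was -0.35, with library pairs between -0.35 and -0.26. RNA rose in 2654 (28.6%) and fell in 2075 (22.4%) of 9275 transcripts after 15 min relative to 2 h (limma, adjusted p under 0.05), and over 1600 codons it rose in 190 and fell in 45 of 348.

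Against unstressed cells, each comparison shares the same unstressed libraries, so the medians are only set side by side. Over 1600 codons the median footprint change was -0.30 at 500 mOsm for 2 h, -1.03 at 600 mOsm for 2 h, 1.67 after 15 min of 700 mOsm and -0.65 after 2 h of it. At 401 to 800 codons the 4 values were -0.16, -0.50, -1.72 and -1.13. For well-read transcripts they were 0.13, 0.08, -0.37 and -0.10 at 401 to 800 codons. Over 1600 codons the well-read values were 0.13, -0.50, 2.41 and -0.62. After 15 min of stress and 15 min of recovery, the medians of the 6 coding-length classes lay between -0.08 and 0.04. The class over 1600 codons was then at -0.08, or 0.27 for its well-read members.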

How the data were processed

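Each deposited list holds transcript identifiers with 1 value, which the authors' file names call RPKM for footprints and FPKM for RNA. The submitters' processing notes name cutadapt, Bowtie, STAR and the build GRCm38 and give no version or role. How reads shared by several transcripts were counted is not given in the sources used here.

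These RPKM and FPKM values, as deposited by the authors, are whole reads divided by a length and a library total. Totals, coding lengths (multiples of 3) and transcript lengths were solved from the values, giving whole reads within a relative tolerance of 1e-09 for 100.0% of values, largely by construction. Non-coding length is transcript minus coding length. The solving and the limma fit were tested on simulated data. Libraries were scaled by median ratios to the geometric mean, taken over transcripts that every one of the assay's 18 libraries lists and that average 10 or more. Change is the difference in mean log2(scaled value + 1), which is too small for low transcripts, and a mean scaled value of 2 over all 18 libraries was required. The RNA test was limma 3.58.1 (R 4.3.3): 9 group means over 18 libraries, a weight per group, a trend, two-sided, adjusted p under 0.05. Limma on footprints stands only as an alternative, because the 2 libraries were counted as 1 sample. The members, length classes and lists were chosen with earlier results of these data known. Named transcripts were the 8 highest and 8 lowest well-read footprint changes, the 6 largest RNA rises and falls with values that do not overlap, the 3 highest and lowest efficiencies and the 5 most read of each condition, of which 4 identifiers are printed. The gene lists and cell type markers were not applied, because no name table used here holds these identifiers.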

Additional observations from a re-analysis of the deposited data

Results flagged for a closer look

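Differences between the 15 min and 2 h exposures to 700 mOsm drew attention in the longest coding sequences and in the RNA of named transcripts. Over 1600 codons the footprint log2 difference of each transcript, 15 min minus 2 h, had a median of 2.26. The class medians against unstressed cells were 1.67 and -0.65. The difference was not tested, since footprints count as 1 sample a condition. The RNA of ENSMUST00000044043 was higher after 15 min than after 2 h by 1.75 on the log2 scale (SE 0.258, limma adjusted p = 4.88e-05), with 24.6 and 21.6 against 7.90 and 4.76 scaled FPKM, the last from 12 reads. The RNA of ENSMUST00000024811 changed by -1.08 (SE 0.118, limma adjusted p = 2.63e-06), with 2.84 and 2.82 scaled FPKM after 15 min against 6.72 and 7.51 after 2 h. The RNA of ENSMUST00000055226 was lower after 15 min than after 2 h, with a log2 difference of -0.83 (SE 0.063, limma adjusted p = 6.5e-08) and 102 and 107 scaled FPKM after 15 min against 178 and 194 after 2 h.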

How the results depend on the processing

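RNA counts stayed within 1.5 times under every alternative run: 1195 to 2379 transcripts rose and 1991 to 3525 fell, the lowest without an unstressed library and the highest with voom on whole reads, and 1461 rose and 3175 fell on the values as deposited. The labels do not pair the replicate numbers, and the correlation of same-numbered deviations was 0.091 for RNA and -0.001 for footprints. With a replicate block 1788 RNA transcripts rose and 2815 fell. Limma on footprints, with libraries as replicates, called 2045 higher and 4543 lower without the block and 2048 and 4534 with the replicate block, and the limma interaction called 1519 efficiencies higher and 4054 lower.

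Footprint counts of 1487 higher and 4323 lower became 744 higher as deposited, 451 and 247 in the well-read set, 314 and 353 in the set by unstressed level, and 331 higher at 4-fold. Efficiency counts of 1236 and 3992 became 609 higher as deposited, 333 and 262 in the well-read set, and 229 and 363 by unstressed level. The well-read sets hold fewer transcripts by construction, and the cause of the other shifts was not tested. Up to 100 codons the footprint median of 0.65 was 0.00 with no filter, 0.07 as deposited, 1.52 well-read and 1.35 by unstressed level, and 0.63 to 0.76 without one library. RNA there was 0.71 and 0.65 in the 2 well-read sets, and efficiency turned to -0.04 with no filter and -0.28 as deposited. At 401 to 800 codons the footprint median of -1.72 was -2.08 with pseudocount 0.25, -1.39 with no filter, -2.09 as deposited, -0.37 and -0.79 in the 2 well-read sets, and -1.77 to -1.58 without one library. Efficiency there was -1.81, -1.20, -1.83, -0.51 and -0.85 under the same settings, and -1.54 to -1.35 without one library. Over 1600 codons footprints were 1.78, 1.37, 1.15, 2.41 and 2.31, efficiency 2.04, 1.71, 1.44, 2.37 and 2.25, and RNA turned from -0.24 to 0.12 and 0.13 in the 2 well-read sets.

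Medians that turned above 0 in the 2 well-read sets included footprints at 101 to 200 codons (1.37 and 1.00). Efficiency there turned too (0.85 and 0.46). Footprints also turned at 151 to 200 (1.00 and 0.44), 201 to 300 (0.53 and 0.09) and 801 to 1600 codons (0.48 and 0.01). The same held for footprints at 251 to 500 nt of non-coding sequence (0.88 and 0.45). RNA turned at 401 to 800 (0.14 and 0.10) and 801 to 1600 codons (0.16 and 0.11). At 1001 to 2000 nt RNA turned as well (0.12 and 0.07). In the first set alone such medians included footprints at 201 to 400 (0.27) and 1001 to 1200 codons (0.20). Footprints at 501 to 1000 nt (0.40) and 2001 to 4000 nt (0.18) also turned there. RNA did so at 2001 to 4000 nt (0.04) and over 4000 nt (0.03). Efficiency at 801 to 1600 codons turned to -0.05 with no filter and -0.30 as deposited, footprints up to 250 nt to -0.09 and -0.38, and footprints at 101 to 150 codons to -0.14 as deposited. RNA at 201 to 400 codons, 0.02, was -0.04 as deposited. Depth limits low footprint values, since the stressed libraries were the shallower ones.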
